A study of Rattus norvegicus with 8 samples.

Results

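The proteoglycan matrix of the brain was followed in the hippocampal dentate gyrus (DG) after status epilepticus (SE) through 10 of the 35199 gene names on the array. They are the lecticans Bcan, Ncan, Vcan and Acan, the link proteins Hapln1 and Hapln2, the tenascins Tnr and Tnc, and the transmembrane proteoglycans Ptprz1 and Cspg4. The members were chosen by name, as every non-control spot whose gene name equals one of the 10, which gave 17 of the 43379 spots. All the rats were ovariectomized (OVX) adult female Sprague-Dawley rats given kainic acid, a glutamate receptor agonist, to induce SE. A control group of 4 rats received oil (COS), and 4 rats received estradiol (E2) replacement (CES). Rats without SE were not analysed here, so each difference below is between E2 and oil in rats that all had SE, and no change caused by SE itself was measured. Per the labels, the rats weighed 150 to 200 g, the 4 doses of 2 µg E2 were spaced by 24 h with 2 before and 2 after SE, kainic acid was given at 16 mg/kg, and pentobarbital stopped SE after 5 h. The methods give another account, with a lower dose of kainic acid, diazepam, all E2 doses before SE, and collection times that differ between paragraphs, and the files do not settle which one holds.

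Perineuronal nets are lattices of extracellular matrix that wrap the cell body and proximal dendrites of some neurons, parvalbumin interneurons above all. Their backbone is hyaluronan, a long sugar chain to which lecticans bind at one end. Link proteins clamp that bond, and tenascin-R cross-links the other end of the lecticans. The chondroitin sulfate chains on the lecticans carry much of the net's charge, limit axon growth and sprouting, and are remodelled after injury and seizures.

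A probe with an open reading frame is printed here for each of Tnc, Vcan and Hapln1, which had the largest differences. The pair that covers unlike transcripts of Bcan is printed too. The levels of Tnc, Hapln1 and Bcan below rest on these probes, and that of Vcan on its probe here and another. The other genes were read by probes not printed. All the printed probes are in the sense of the mRNA, 5′ to 3′, with the position of the first base in the annotated transcript as the array's files give it.
Tnc, from base 5564: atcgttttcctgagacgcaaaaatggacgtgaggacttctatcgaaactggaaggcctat
Vcan, from base 7466: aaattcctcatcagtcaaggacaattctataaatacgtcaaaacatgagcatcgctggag
Hapln1, from base 873: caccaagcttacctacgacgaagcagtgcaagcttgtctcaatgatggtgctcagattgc
Bcan, from base 1376: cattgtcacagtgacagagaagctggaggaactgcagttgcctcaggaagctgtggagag
Bcan, from base 2003: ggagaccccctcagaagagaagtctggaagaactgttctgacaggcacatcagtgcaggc
On the rn4 build that the files use, the Vcan probe lies at chr2:19714573-19714632 on the minus strand and the Hapln1 probe at chr2:19636823-19636882 on the plus strand. The upstream Bcan probe lies at chr2:180074580-180074639 and the downstream one at chr2:180073505-180073564, both on the minus strand, and the Tnc probe is given as unmapped. The upstream Bcan probe is annotated to 2 RefSeq transcripts and the downstream one to 1 of them. The Vcan probe is annotated to all 4 RefSeq transcripts listed for that gene. Single probes measured Ncan (chr16:19810549-19810608), Cspg4 (chr8:60645806-60645865) and Acan, whose probe spans 569 bases of chromosome 1.

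Each rat was 1 channel of a 2-colour array, and 4 arrays on 1 slide each carried a pair of rats of the same group, 1 labeled with Cy3 and 1 with Cy5. A spot was valid where its foreground was at least 2 times its background, which held for 74.6% to 88.9% of spots in COS and 70.7% to 81.5% in CES. Background-subtracted signals were scaled so that the median valid spot of a channel was 1, and a level is the log2 of this signal, averaged where 2 probes of a gene were usable in every rat. Of the 17 member spots 15 passed, so all 10 genes were measured, 5 by 2 probes and 5 by 1. The median of all genes was itself lower in CES, by −0.25 on the log2 scale. A scaling by loess within and Aquantile between arrays moved it to 0.04. This second reading is therefore given below for each member or called gene whose call or direction it changed, and for Pvalb and Pdgfra. In COS replicate 2 the choroid plexus marker Ttr reached 9.22 against 3.57 to 5.48 in the other COS rats, and it was 5.63, 7.55, 3.80 and 7.55 in CES. The choroid plexus markers Folr1 (3.19), Clic6 (1.2) and Otx2 (1.98) were also highest of all rats in COS replicate 2. In CES they ran from −0.13 to 1.44, from −2.6 to −1.34 and from −1.0 to −0.1. Among DG markers, C1ql2 and Calb1 were measured in all rats, while the granule cell factor Prox1 was well above background in 0 of 8.

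E2-replaced rats had less Tnc, Vcan, Ncan and Cspg4 mRNA after SE than oil-injected rats and more Hapln1 mRNA, so 4 of the 10 genes fell and 1 rose. The falls ran from 6.57-fold for Tnc to 1.57-fold for Cspg4, and Hapln1 was 2.08-fold higher. Among all 20787 genes tested by limma at an adjusted p under 0.05, 28.6% were lower in CES and 5.74% higher, so the count alone does not set the members apart. The median difference over the 10 genes was −0.44, against −0.25 over all genes. The COS and CES values did not overlap for 3 members, all lower in CES, which held for 19.7% of all genes, while 1.55% did not overlap with CES higher. Under loess and Aquantile, which called 15.6% of genes higher and 10.6% lower, Tnc and Vcan stayed lower and Hapln1 higher, Tnr was also higher, and Ncan and Cspg4 no longer passed. These are levels in whole DG tissue, in which fewer cells of a type and less RNA per cell cannot be told apart.

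**Figure D1:**
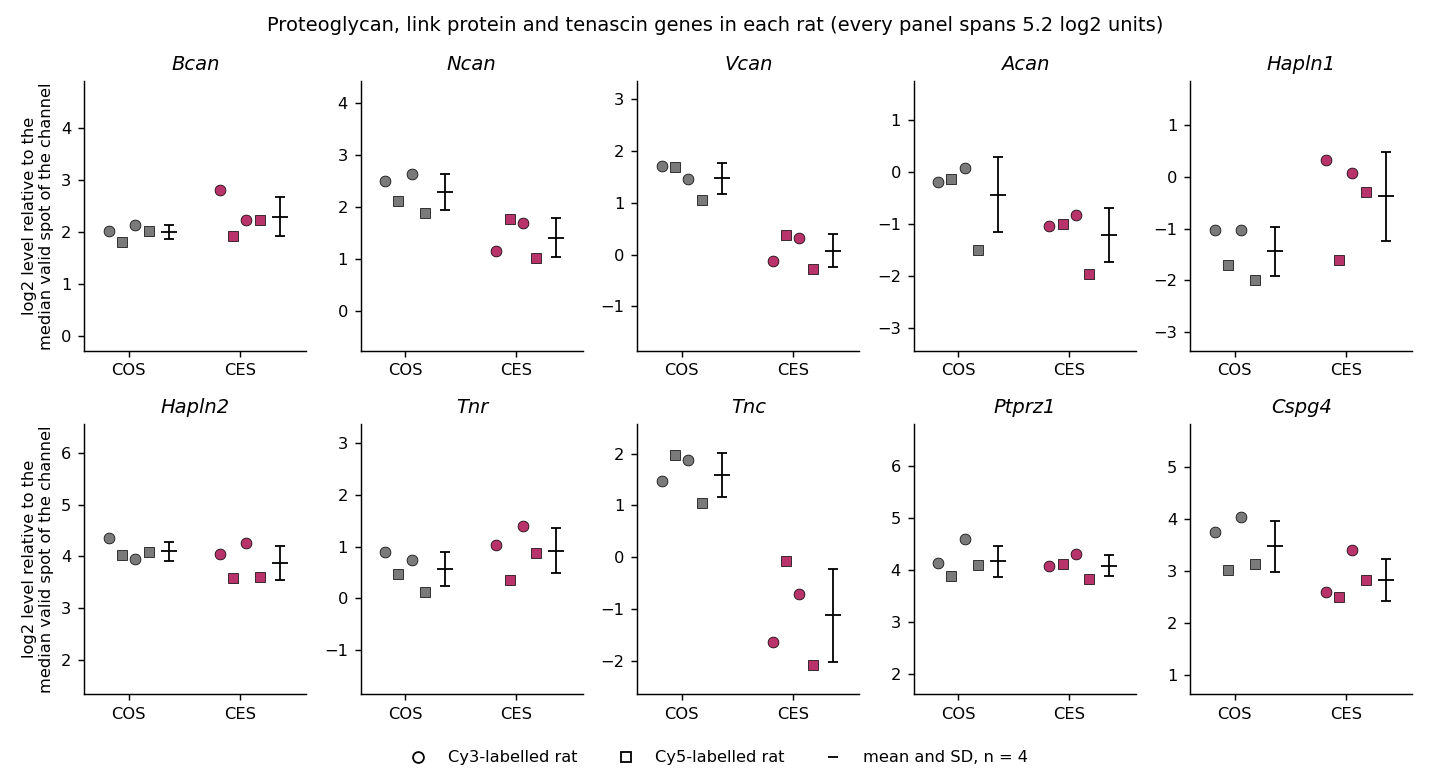
Level of each of the 10 genes in each rat, as log2 relative to the median valid spot of the channel, for 4 oil-injected (COS) and 4 E2-replaced (CES) rats, with the Cy3 and Cy5 rats marked and the mean and SD beside each group. The groups do not overlap for Ncan, Vcan and Tnc, and CES replicate 2, the second CES point in each panel, lies among the COS rats for Hapln1.

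**Figure D2:**
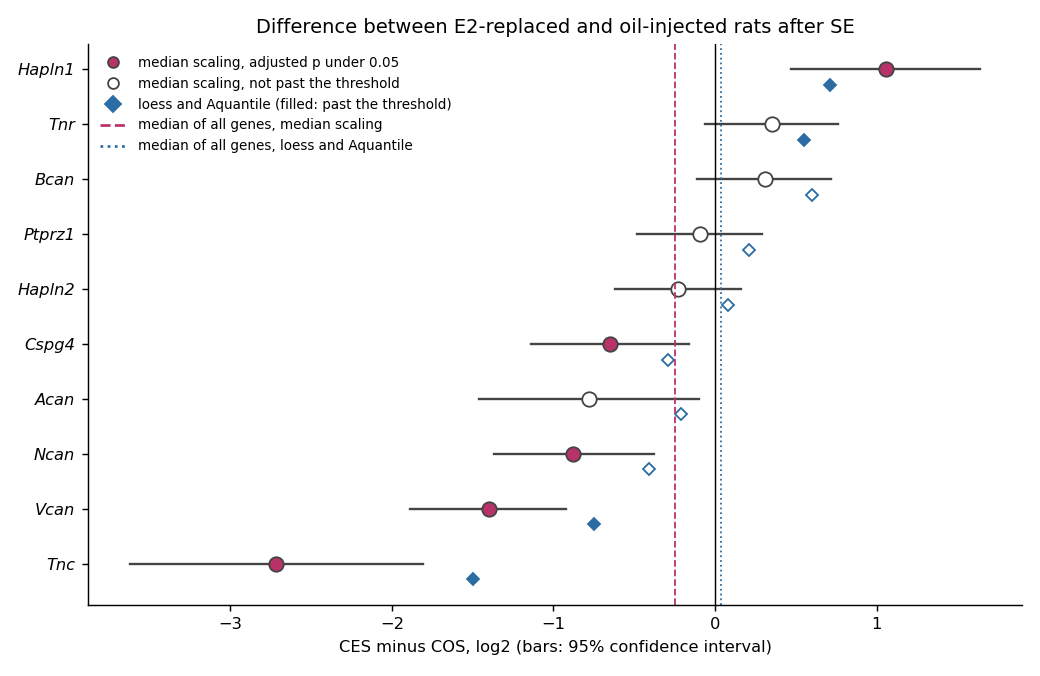
CES minus COS on the log2 scale for each gene with its 95% confidence interval (circles), and the same after loess and Aquantile (diamonds), with filled symbols for an adjusted p under 0.05. Tnc lies at −2.72 and Hapln1 at 1.06, while the circles of Ptprz1 and Hapln2 lie between 0 and the median of all genes.

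Tnc encodes tenascin-C, a matrix glycoprotein made in quantity by immature and reactive astrocytes and in wounded tissue. Its level was 1.48, 1.97, 1.87 and 1.05 in COS replicates 1 to 4 and −1.63, −0.08, −0.70 and −2.08 in CES replicates 1 to 4. Every CES rat was below every COS rat, with CES replicate 2 nearest to them and a CES SD of 0.90 against 0.42 in COS. The difference was −2.72 ± 0.41 (SE, n = 4 per group, limma adjusted p = 0.00341), and 0.539% of all genes tested had a lower one. After loess and Aquantile it was −1.50 (adjusted p = 0.0104). The scanner software marked the spot as well above background in all 4 COS rats and in 2 CES rats, so the low CES values are the less certain side of the fold. A probe from base 2239 of the same mRNA was valid in 4 COS rats but in 1 CES rat, so it entered no test.

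Tnr encodes tenascin-R, which oligodendrocytes and some neurons make and which ties lecticans together in the net. Its level was 0.90, 0.48, 0.75 and 0.13 in COS and 1.03, 0.36, 1.39 and 0.87 in CES, with wide overlap. This level averages 2 probes that the array's files place on opposite strands, and they are given apart below. The difference of 0.35 ± 0.18 did not pass (adjusted p = 0.168, 95% confidence interval −0.06 to 0.76). Against the median gene it stood at 0.60, and Tnr was called higher after loess and Aquantile (0.55, adjusted p = 0.0256). It was also called higher with quantile scaling, with scaling over spots valid in all rats, in the deposited log2 values and with spots kept only where well above background. Whether Tnr and Tnc responded differently was not tested.

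Vcan encodes versican, the lectican of developing brain, of oligodendrocyte lineage cells and of reactive matrix. Its level was 1.71, 1.68, 1.45 and 1.05 in COS and −0.13, 0.37, 0.31 and −0.28 in CES. The groups stood apart, with SDs of 0.30 and 0.32. CES was 2.64-fold lower, a difference of −1.40 ± 0.22 (limma adjusted p = 0.00363), and it was −0.75 after loess and Aquantile (adjusted p = 0.0117). With normexp background correction it did not pass (−0.96, adjusted p = 0.103). Both probes fell, by 1.05 for the one printed above and by 1.61 for the one further along the transcript (adjusted p = 0.00574 and 0.00352 over probes). In that test across 24861 probes, 29.4% were lower in CES and 5.46% higher, and of the 15 member probes 5 were lower and 2 higher.

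Ncan encodes neurocan, which neurons and astrocytes secrete and which reactive astrocytes make in larger amounts. Its level was 2.51, 2.11, 2.64 and 1.89 in COS and 1.16, 1.77, 1.69 and 1.02 in CES. No CES rat reached the lowest COS rat, though CES replicate 2 came within a small step of COS replicate 4. CES was 1.84-fold lower, a difference of −0.88 ± 0.22 (limma adjusted p = 0.0156). The call was lost after loess and Aquantile (−0.41, adjusted p = 0.110), and without COS replicate 1 (adjusted p = 0.0556), COS replicate 3 (0.111) or CES replicate 1 (0.0707).

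Acan encodes aggrecan, the lectican most closely tied to perineuronal nets. Its level was −0.19, −0.12, 0.09 and −1.49 in COS and −1.04, −1.0, −0.82 and −1.97 in CES. Replicate 4 was the lowest rat in both groups, and COS replicate 4 was the only COS rat within the range of CES. The difference of −0.78 ± 0.31 did not pass (limma adjusted p = 0.0721, 95% confidence interval −1.46 to −0.10). With the replicate number as a block it was −0.78 with an adjusted p of 0.0092, and it also passed when COS replicate 4 (−1.08, 0.0317) or CES replicate 2 (−1.0, 0.018) was left out. It did not pass when any other rat was left out. Leaving out the COS rat that lies within CES favours a larger difference, so that pass is no support for the Acan difference. After loess and Aquantile it was −0.21 (adjusted p = 0.338). All 4 COS rats but 2 CES rats had this spot well above background.

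Bcan encodes brevican, the most abundant lectican of adult brain, found in nets and around synapses. Its level was 2.03, 1.81, 2.13 and 2.02 in COS and 2.82, 1.93, 2.23 and 2.24 in CES. CES replicate 1 stood highest and the other CES rats were near the COS rats, whose SD of 0.14 was the smallest of any member. The difference of 0.31 ± 0.19 did not pass (limma adjusted p = 0.227, 95% confidence interval −0.11 to 0.72). Among the 4 lecticans 2 fell and none rose, beside 28.6% and 5.74% of all genes. Of those 2 only Vcan was still called after loess and Aquantile.

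Hapln1 encodes the link protein that stabilizes the bond of lecticans to hyaluronan and that nets need to form. Its level was −1.03, −1.70, −1.03 and −1.99 in COS and 0.33, −1.61, 0.07 and −0.30 in CES. CES replicates 1, 3 and 4 were above every COS rat, and CES replicate 2 was below 2 of them. The difference was 1.06 ± 0.26 (limma adjusted p = 0.0140), or 1.31 above the median gene, and 98.3% of genes had a lower one. It was 0.71 after loess and Aquantile (adjusted p = 0.0405). Leaving out CES replicate 2 gave 1.35 (adjusted p = 0.000235), but it is the CES rat nearest to the COS mean. Its removal favours a larger difference and is no check on Hapln1. Hapln1 did not pass when normexp replaced the background subtraction (0.51, adjusted p = 0.560), nor without COS replicate 3 (adjusted p = 0.0908), COS replicate 4 (0.0535) or CES replicate 1 (0.0687), and 3 COS rats and all 4 CES rats had the spot well above background.

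A further probe on the array, named for an expressed sequence of a link protein and lying at chr2:19638472-19638531 just past the Hapln1 probe on the same strand, is no member by name. It read 0.23, 0.15, 0.24 and −0.12 in COS and 1.75, −0.12, 1.49 and 1.71 in CES. The same 3 CES rats were high and CES replicate 2 lay with the COS rats, as for Hapln1. This TC584043 probe differed by 1.08 ± 0.34 (limma adjusted p = 0.0330 over probes), and by 1.1 after loess and Aquantile (adjusted p = 0.0647).

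Hapln2 encodes the link protein of the nodes of Ranvier, made by oligodendrocytes. Its level was 4.36, 4.02, 3.95 and 4.08 in COS and 4.04, 3.59, 4.26 and 3.61 in CES. The groups overlapped, and the difference of −0.23 ± 0.17 did not pass (limma adjusted p = 0.338, 95% confidence interval −0.62 to 0.16). Its sign turned with the scaling, to 0.08 after loess and Aquantile, and it lay 0.03 above the median gene.

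Cspg4 encodes NG2, a proteoglycan that spans the membrane of oligodendrocyte precursors and pericytes. Its level was 3.75, 3.02, 4.04 and 3.13 in COS and 2.59, 2.50, 3.41 and 2.83 in CES. CES replicates 1, 2 and 4 were below every COS rat and CES replicate 3 was above 2 of them. The difference of −0.65 ± 0.22 passed by little (limma adjusted p = 0.0435), and it was −0.29 after loess and Aquantile (adjusted p = 0.241). It no longer passed when any 1 COS rat or CES replicate 1 or 2 was left out, with values from −0.72 to −0.44. Of the oligodendrocyte precursor markers, 1 of the 5 tested fell, Sox10 at −0.65 ± 0.18 (adjusted p = 0.0237, not called after loess and Aquantile). Pdgfra was at −0.12 ± 0.18 (adjusted p = 0.635), and its sign turned after loess and Aquantile (0.20, adjusted p = 0.361). Of the pericyte and vascular markers, 2 of 4 fell, Pdgfrb by 1.25 (adjusted p = 0.00329) and Kcnj8 by 1.25 (0.00870), and Rgs5 rose by 0.79 (0.00758). Over all genes 28.6% were called lower and 5.74% higher. The mean level of the pericyte and vascular list ran from 2.04 to 2.47 in COS and from 1.45 to 2.04 in CES, and its part in the Cspg4 difference was not tested.

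Ptprz1 encodes a receptor phosphatase of glia whose secreted form, phosphacan, is itself a chondroitin sulfate proteoglycan that binds tenascins. Its level was 4.13, 3.89, 4.59 and 4.09 in COS and 4.07, 4.11, 4.31 and 3.83 in CES. The groups overlapped almost entirely, and the difference of −0.09 ± 0.17 did not pass (limma adjusted p = 0.704, 95% confidence interval −0.48 to 0.29). Its sign turned with the scaling, to 0.21 after loess and Aquantile.

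The 2 probes of Ptprz1 did not read alike. The probe annotated to transcript variant 2 was 0.36 ± 0.15 higher in CES (adjusted p = 0.0939 over probes) and the probe annotated to variant 1 was at −0.32 ± 0.21 (0.259). A difference between 2 probes in the same rat does not move with a constant factor on a channel, though it can move with loess, and it was taken for the 5 genes with 2 measured probes, after their values were seen. For Ptprz1 the variant 1 probe minus the variant 2 probe was 1.07, 1.33, 1.71 and 1.51 in COS and 0.33, 0.84, 1.07 and 0.67 in CES. CES replicates 1, 2 and 4 were below every COS rat, but CES replicate 3 met COS replicate 1 at 1.07, so the groups overlapped. The mean difference was −0.67 (exact two-sided permutation test, p = 0.0571). After adjustment over the 9 such differences tested in all it did not pass (adjusted p = 0.129). After loess and Aquantile the variant 2 probe was called higher by itself, at 0.65 (limma adjusted p = 0.0172). The difference between the probes was then −0.66 (exact permutation p = 0.0286, adjusted p = 0.129).

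The other pairs of probes gave smaller shifts against their spread. For Bcan the probe annotated to both transcripts was 0.70 ± 0.25 higher in CES (limma adjusted p = 0.04998 over probes, 0.0892 after loess and Aquantile), and it was well above background in 3 COS rats. The probe annotated to 1 of them was at 0.27 ± 0.18 (adjusted p = 0.278). The difference between the 2 in the same rat, −0.42 between the groups, did not pass (exact permutation p = 0.200), and it was 0.02 after loess and Aquantile. For Tnr the probe near the end of the mRNA was at 0.52 ± 0.21 and the other, from an entry for its 5′ end that the files place on the opposite strand, at 0.11 ± 0.17. Their difference of 0.42 in the same rat had an exact permutation p of 0.0571 and an adjusted p of 0.129. For Vcan and Hapln2 the exact permutation p was 0.143 and 0.0857.

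**Figure D3:**
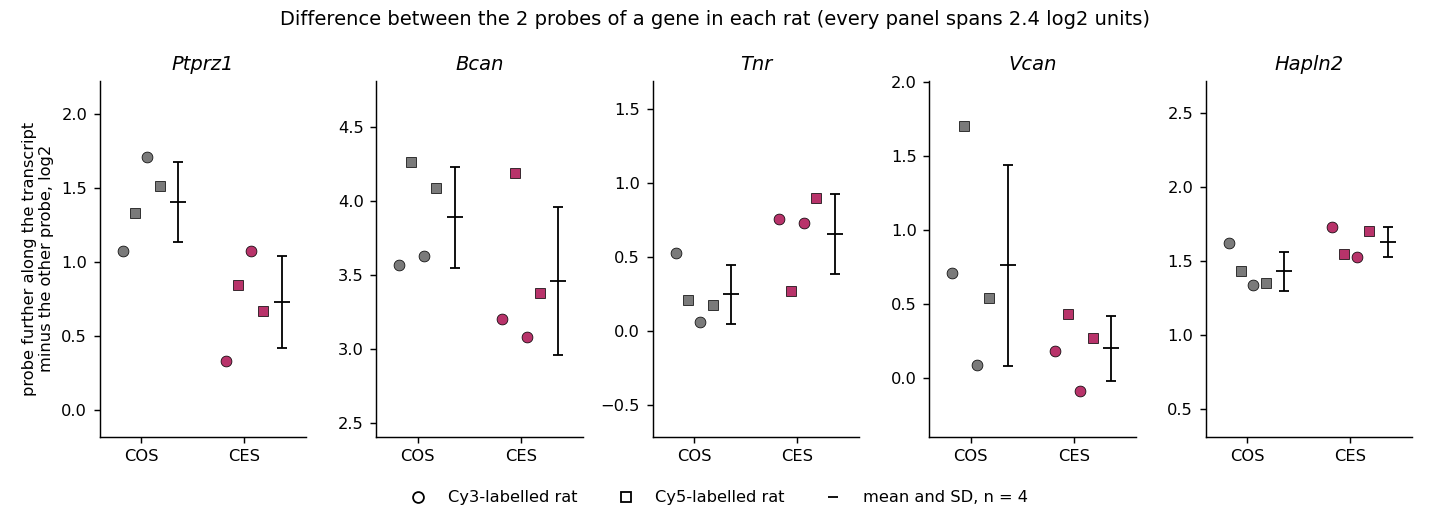
The difference between the 2 probes of a gene in each rat, on the log2 scale, for 4 COS and 4 CES rats with the mean and SD. It is the probe with the later start in its annotated sequence minus the other. For Tnr and Ptprz1 the 2 probes are annotated to unlike sequences, so the order is not along a shared transcript. For Ptprz1 the mean is 1.40 in COS and 0.73 in CES, and for Bcan CES replicate 2 lies with the COS rats at 4.19.

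In the rat genome each lectican gene has a link protein gene for a neighbour, and the pairs are Vcan with Hapln1, Bcan with Hapln2, Ncan with Hapln4 and Acan with Hapln3. The nearest probes of a pair lay between 7.1 kb (Acan and Hapln3, chromosome 1) and 75.9 kb (Vcan and Hapln1, chromosome 2) apart on rn4. The link protein minus its lectican was again taken in each rat, after the values of the genes were seen. For Hapln1 minus Vcan it was −2.74, −3.38, −2.48 and −3.04 in COS and 0.45, −1.98, −0.24 and −0.02 in CES. Every CES rat was above every COS rat, by 2.46 on average (exact two-sided permutation test, p = 0.0286, the smallest that 4 against 4 rats allow; adjusted p = 0.129 over the 9 differences). CES replicate 2 was the nearest to the COS rats. Vcan had already been called lower and Hapln1 higher in these same rats, so this separation is no further support for either difference. With loess and Aquantile the mean difference was 1.46, again without overlap and with the same p.

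For Hapln4 minus Ncan the values were 0.20, 0.75, 0.29 and 0.70 in COS and 2.17, 0.62, 1.67 and 2.15 in CES. CES replicate 2 lay among the COS rats and the other 3 above them, a mean difference of 1.17 (exact permutation p = 0.0857). Hapln3 minus Acan differed by 0.67 (exact permutation p = 0.143) and by 0.30 after loess and Aquantile, and Hapln2 minus Bcan by −0.53 (exact permutation p = 0.0571), the only pair with a negative difference. None of the 4 passed after adjustment, and with 9 differences of 4 against 4 rats, a single one could not have passed.

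**Figure D4:**
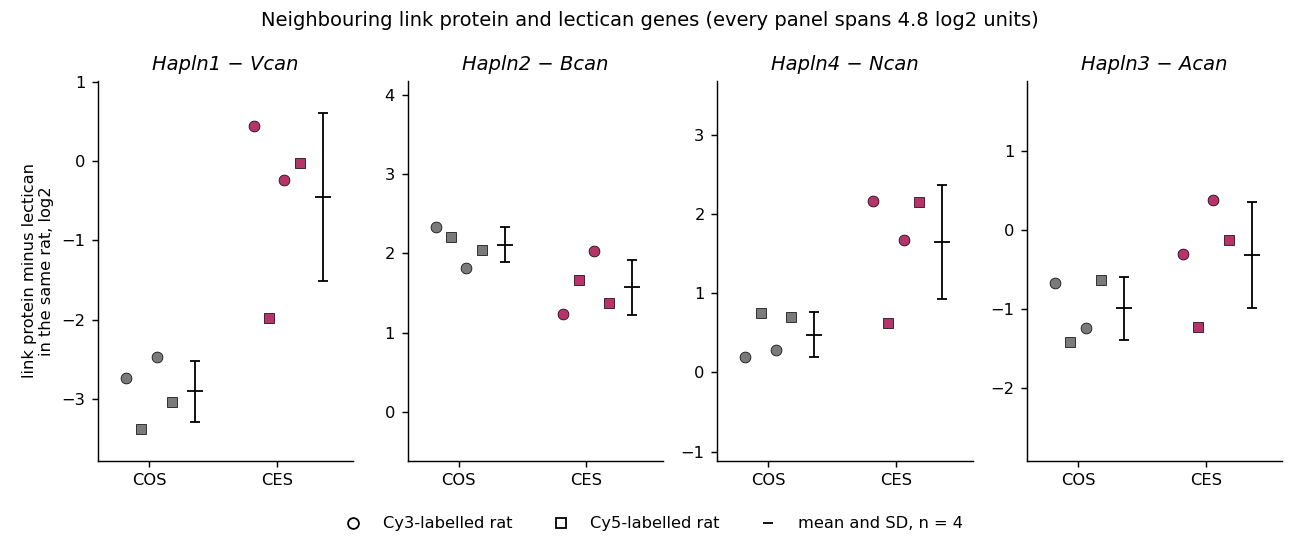
The link protein minus its neighbouring lectican in each rat, on the log2 scale, for 4 COS and 4 CES rats with the mean and SD. Hapln1 minus Vcan averages −2.91 in COS and −0.45 in CES without overlap, while the other 3 pairs overlap.

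The other genes that build, cut or read this matrix were counted over 53 genes in 6 lists, of which 40 had a spot valid in all rats. Among these 40, 16 fell and 4 rose, beside 28.6% and 5.74% of all genes, with a median difference of −0.21 against −0.25 over all genes. After loess and Aquantile 6 fell and 5 rose, beside 10.6% of all genes lower and 15.6% higher in that scaling. The lists were chosen with earlier results of these data known, and they are described by their counts.

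Of the 11 genes that build the chondroitin sulfate chain, 4 fell and none rose, beside 28.6% and 5.74% of all genes. Chsy1, a chondroitin synthase, was −1.28 ± 0.38 (limma adjusted p = 0.0278), and its partner Chpf2 was −0.99 ± 0.26 (0.0180). B3galt6, which adds a sugar of the linker to the core protein, was −0.95 ± 0.22 (0.0104), and Csgalnact2, which starts the chain, −0.73 ± 0.18 (0.0133). The list's median was −0.21, near that of all genes, and none of the 4 calls held after loess and Aquantile. Of the 5 sulfotransferases and epimerases tested, 3 fell and none rose, beside the same shares of all genes. Dse, the epimerase that turns chondroitin into dermatan sulfate, was −1.31 ± 0.24 (adjusted p = 0.00489) and −0.59 after loess and Aquantile (0.0254). The sulfotransferases Chst14 (−1.17, adjusted p = 0.00836) and Chst11 (−0.91, 0.0129) were not called after loess and Aquantile.

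Among genes for hyaluronan, the largest difference was that of Cd44, its main cell surface receptor, which reactive glia carry. Cd44 was 5.67, 5.50, 5.92 and 5.41 in COS and 0.10, 4.32, 0.52 and −0.12 in CES. All CES rats were below all COS rats, but CES replicate 2 stood far from the other CES rats and near COS. The difference was −4.42 ± 0.79 (limma adjusted p = 0.00468). The hyaluronidase Hyal2 fell by 1.19 (adjusted p = 0.00373) and Tmem2, a cell surface hyaluronidase, by 1.16 (0.00746). Thus 3 of the 4 tested fell and none rose, beside 28.6% and 5.74% of all genes. Tmem2 was not called after loess and Aquantile (−0.44, adjusted p = 0.102). The Has2 spot, for a hyaluronan synthase, was valid in all rats but carried an outlier mark and was left out of the test. With marked spots kept, Has2 read from −0.56 to 0.23 in COS and from −2.95 to 2.45 in CES (difference −0.42 ± 0.94, adjusted p = 0.759).

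Of the 5 proteases tested that cut lecticans 4 fell, beside 28.6% of all genes, and for those 4 the groups did not overlap, beside 19.7% of all genes. Adamts1 was 0.69, 0.39, 0.72 and −0.11 in COS and −2.60, −1.47, −2.18 and −3.56 in CES, a difference of −2.88 ± 0.38 (limma adjusted p = 0.00309). Adamts9 was 2.42, 2.63, 2.78 and 2.10 in COS and −0.35, 0.88, −0.29 and −0.45 in CES, a difference of −2.54 ± 0.30 (0.00265). In both genes the CES rats were far below COS and CES replicate 2 was the nearest to it. Adamts5 was at −1.11 ± 0.19 (adjusted p = 0.00439) and Adamts4 at −0.94 ± 0.15 (0.00381). After loess and Aquantile Adamts1 (−1.13, limma adjusted p = 0.00923), Adamts9 (−1.67, 0.00923) and Adamts5 (−0.35, 0.0398) were still called lower. Adamts4 was not called (−0.27, 0.0877). Adamts1, Adamts4 and Adamts5 had no value with spots kept only where well above background, so their low levels are less certain. Adamts15 was at 0.13 ± 0.25 (adjusted p = 0.720). Of the lecticans, which these enzymes cut, Vcan and Ncan fell while Bcan and Acan did not pass, as given above.

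Of the 8 remaining link proteins and matrix proteoglycans 3 rose, 1 fell and 4 were not called. The shares of all genes were 5.74% higher and 28.6% lower. Cspg5, neuroglycan C, rose by 1.02 ± 0.28 (limma adjusted p = 0.0218), the small proteoglycan Dcn by 0.93 ± 0.28 (0.0308) and Spock3, a testican, by 0.46 ± 0.16 (0.0466), and all 3 were higher after loess and Aquantile too. Bgn, the small proteoglycan next of kin to Dcn, fell by 1.57 ± 0.39 (adjusted p = 0.0136), and CES replicate 2 at 5.95 was again near the COS rats at 5.86 to 6.29. The Bgn call was lost after loess and Aquantile (−1.24, adjusted p = 0.0858). Of the 7 receptors and partners of chondroitin sulfate tested, Rtn4r, the Nogo receptor, rose by 1.17 ± 0.25 (0.00844). Nptx2, a secreted pentraxin that neurons release with activity and that nets bind, fell by 1.94 ± 0.41 (0.00741), and its call too was lost after loess and Aquantile (−1.59, 0.0538).

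**Figure D5:**
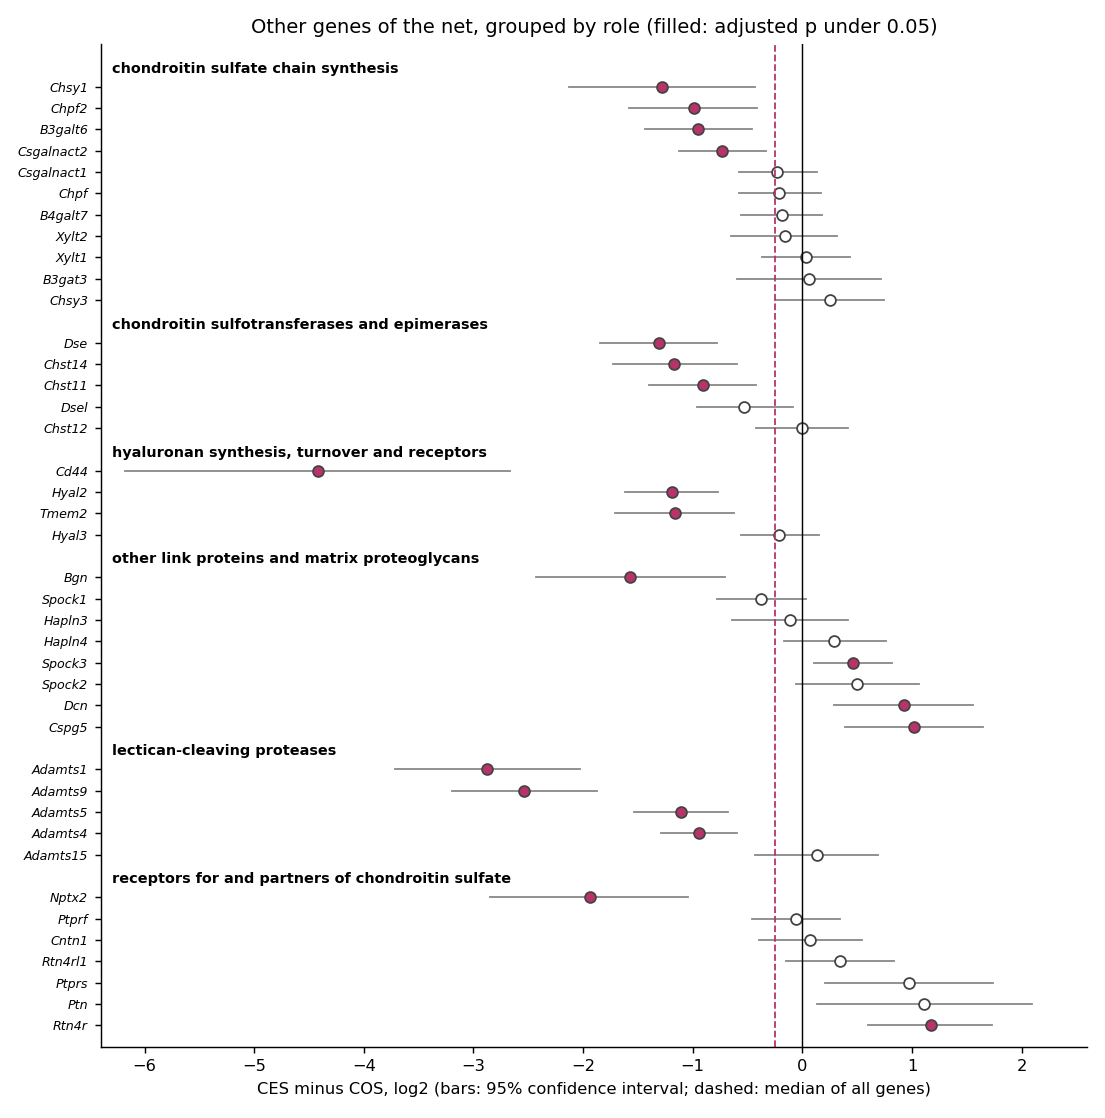
CES minus COS on the log2 scale with 95% confidence intervals for the 40 tested genes that build, cut or read the matrix, grouped by role, with filled circles for an adjusted p under 0.05 and a dashed line at the median of all genes. Cd44 lies farthest left at −4.42, and 4 of the 5 proteases are lower.

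Nets are densest around parvalbumin interneurons, and Pvalb was at 0.51 ± 0.20 (limma adjusted p = 0.0715), with 2.42, 2.45, 2.92 and 2.19 in COS and 3.11, 2.47, 3.37 and 3.07 in CES. After loess and Aquantile it was called higher, at 0.80 (adjusted p = 0.0162). Kcnc1, the potassium channel of fast-spiking cells, rose by 0.99 ± 0.26 (adjusted p = 0.0182), while Sst, the peptide of another interneuron class, fell by 1.61 ± 0.30 (0.00519). Gad1 (−0.57 ± 0.21, limma adjusted p = 0.0589) and Gad2 (−0.58 ± 0.25, 0.0932) were lower in CES but not called. Of the 5 interneuron markers tested, then, 1 rose and 1 fell, beside 5.74% and 28.6% of all genes. The list's median difference was −0.57, and its mean level ran from 3.03 to 3.62 in COS and from 2.95 to 3.34 in CES.

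Of the 6 astrocyte markers, 2 rose, Gja1 by 1.42 ± 0.41 (limma adjusted p = 0.0241) and Aldh1l1 by 1.23 ± 0.24 (0.00598), and none fell. Over all genes 5.74% were called higher and 28.6% lower. Gfap, the filament of reactive astrocytes, was 5.87, 5.63, 5.96 and 6.04 in COS and 3.48, 5.58, 5.54 and 4.02 in CES. Its groups did not overlap, but 2 CES rats were close to COS, and the difference of −1.22 ± 0.44 did not pass (adjusted p = 0.0532). Of the 6 microglia markers, Itgam fell by 1.92 (0.0109) and Csf1r by 0.92 (0.00756), and P2ry12 rose by 0.93 (0.00785). Neither Itgam (−1.26, adjusted p = 0.0740) nor Gja1 (1.67, 0.0505) was called after loess and Aquantile. The mean level of the astrocyte list ran from 3.33 to 3.72 in COS and from 3.26 to 4.23 in CES, and that of the microglia list from 1.12 to 1.95 and from 0.92 to 1.45. Of the 6 oligodendrocyte markers none was called, and of the 5 neuron and granule cell markers tested Syt1 rose by 0.58 (0.0288) and C1ql2 fell by 1.23 (0.00970), with C1ql2 not called after loess and Aquantile (−0.77, 0.0547). The part of these cell types in the differences of the members was not tested.

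Among the 5 members that passed, CES replicate 2 was the CES rat nearest to the COS mean in 4. Within a group the members varied to unlike degrees, with SDs from 0.14 for Bcan to 0.72 for Acan in COS and from 0.20 for Ptprz1 to 0.90 for Tnc in CES. Without CES replicate 2 the difference of Tnc was −3.14, of Vcan −1.55 and of Ncan −1.08, each farther from 0 than with all 8 rats. Leaving out the CES rat nearest to COS favours such a shift, so it is no check on these differences. Without COS replicate 3 Tnc (−2.58, limma adjusted p = 0.0451) and Vcan (−1.41, 0.0441) were the only members still called.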

How the data were processed

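Total RNA from the DG of 8 OVX rats after SE was hybridized to 4 2-colour Agilent arrays. The authors deposited, per the file headers, the foreground and background intensity of each spot as Agilent Feature Extraction 10.7.3.1 gave it, and a table of log2 values. Each column of the deposited log2 table equals the log2 of median signal minus background median, less a constant. Groups, replicate numbers and dyes came from the sample titles. Probe positions are those of the files (rn4).

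Validity of a spot needed a foreground 2 times its background, as in the methods. The mean signal minus background median was divided by the median of same-label valid spots, averaged over spots valid in all 8 rats without an outlier mark (26294 of 43379), and taken to log2. Outlier marks stood on 1593 spots, none of a member. No spot was saturated. The authors' iterative renormalization needs the other groups and was not repeated. The precision is limited by 4 rats per group, with a median standard error of 0.20.

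The groups were compared with limma 3.58.1 (R 4.3.3, statmod 1.5.0, data.table version 1.17.8), two-sided, with dye as a term and array as a random block, and Benjamini-Hochberg adjustment over all genes, or over all probes, at 0.05. The array lies within the group, so only a random block can carry it, and its estimated correlation was −0.01. Same-numbered rats deviated together (correlations from 0.21 to 0.35), but the number also sets the dye, and with dye means removed they were −0.06 to −0.04. The numbers come from the titles. Differences within a rat were compared by exact permutation tests over 9 differences (scipy 1.17.1). Unlike the limma fit, these tests took no account of dye, so any effect of dye stayed in the spread within each group. The fit was tested on simulated data. The labels do not say how the rats were paired or whether samples shared a litter. Other tools were Python 3.11.15, numpy 2.4.6, pandas 2.3.3 and matplotlib 3.10.9.

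The members and lists were chosen with earlier results of these data known. Named were all members, of each list the called genes (at most 4), and Pvalb, Pdgfra and Gfap. Adamts15, Has2, Ttr, Folr1, Clic6, Otx2, Prox1, Calb1, Gad1, Gad2, Hapln3, Hapln4, Chpf, Dsel, Rtn4rl1 and TC584043 are named outside this rule, after their values were seen. The alternatives were normexp (offset 50), loess and Aquantile, the processed intensity, quantile, scaling over spots valid in all rats, the deposited table, no filter, a foreground of 3 times background, a fit without the array block, one without the dye term, a replicate block, only spots well above background, the brightest probe, RefSeq names, the methods' t-test, each rat left out and, added after seeing the data, outlier marks kept and loess for differences within a rat.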

Additional observations from a re-analysis of the deposited data

Results flagged for a closer look

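No member had a rat that stood apart from the other 3 of its group by Dixon's ratio at its 95% critical value for 4 rats. Among the other matrix genes, Cd44 was at 4.32 in CES replicate 2 against −0.12 to 0.52 in the other CES rats, and Adamts9 was at 0.88 in the same rat against −0.45 to −0.29. Rtn4rl1, at 2.91 in CES replicate 2, was below the other CES rats at 3.55 to 3.67. In CES replicate 4, Chpf was at 6.0 against 6.2 to 6.24 and Dsel at −0.76 against −0.16 to −0.04. These are 5 of the 100 groups examined, and chance gives about 5%.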

How the results depend on the processing

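Of the 236 member values under alternatives, 173 kept direction and side of the threshold, 38 lost and 10 gained the call, and 15 turned sign, all of Hapln2 and Ptprz1, which were never called. Hapln2 became 0.08 with loess and Aquantile and with quantile, 0.17 scaled over spots valid in all rats, 0.12 without a filter, 0.22 well above background and 0.15 in the deposited table. Ptprz1 became 0.07 with normexp, 0.21 with loess and Aquantile and with quantile, 0.30 over spots valid in all rats, 0.25 without a filter, 0.02 at 3 times background, 0.35 well above background, 0.27 in the deposited table and −0.17 to 0.00 with a COS rat left out. Counts below are higher then lower. For members they were 1 and 4, and became 0 and 1 with normexp (Tnc), 2 and 2 with loess and Aquantile, quantile, common spots and the deposited table, 1 and 1 at 3 times background, 2 and 1 well above background, and 0 to 1 and 2 to 4 with a rat left out. For all genes 1194 and 5943 became 135 and 483 with normexp, 3249 and 2207 with loess and Aquantile, 3308 and 2468 with quantile, 3380 and 1778 with common spots, 3210 and 1923 in the deposited table, 1222 and 2805 at 3 times background, 2138 and 879 well above background, and 285 to 1805 and 1141 to 6940 with a rat left out, the lowest without COS replicate 3. For the matrix lists 4 and 16 became 1 and 4 with normexp, 5 and 6 with loess and Aquantile, 5 and 8 with quantile, 6 and 6 with common spots, 6 and 8 in the deposited table, 9 and 6 well above background, and 0 to 7 and 7 to 17 with a rat left out. For member probes 2 and 5 became 4 and 3 with loess and Aquantile and in the deposited table, and 0 to 3 and 2 to 6 with a rat left out. Without a filter and by the methods' t-test every count was 0 and 0 after adjustment. At an unadjusted p under 0.05 the t-test passed 5900 genes and 3 members, and the fit without a filter 9043 and 4. The difference between the Bcan probes in a rat turned from −0.42 to 0.02 with loess and Aquantile, and none of the 9 such differences passed in either setting. The cause of these shifts was not tested. With the replicate block 1 member was higher and 5 lower, the added one being Acan, and no other member call changed. Tnc had no value at 3 times background, and Tnc, Acan and Hapln1 had none with spots kept only where well above background throughout.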
